A study of Homo sapiens with 6 samples.

Results

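The genes described here are the metalloproteases of the MMP, ADAM and ADAMTS families and their tissue inhibitors, the TIMPs. They were taken by name, as every gene whose symbol is MMP, ADAM, ADAMTS or TIMP followed by a number and nothing else. Of the 19775 genes with a probe set of their own on the array, 64 met this rule: 22 MMP, 20 ADAM, 18 ADAMTS and 4 TIMP genes. Expression was measured in MDA-MB-231, a human breast cancer cell line that is invasive and lacks hormone receptors and HER2 amplification, on Affymetrix U133 Plus 2.0 arrays. The control group was 3 arrays of cells carrying a lentiviral short hairpin against GFP (shGFP), and the knockdown group was 3 arrays of cells carrying a hairpin against ATAD3A (shATAD3A), an ATPase of the inner mitochondrial membrane. Cells of both groups carried the pLKO.1 vector, had been kept under puromycin (1.0 µg/ml) for 2 weeks, and were labelled passage 2. The labels do not say how many hairpins against ATAD3A were used, nor whether each line was a clone or a pool. Nor do they say whether each replicate came from its own culture; the p-values therefore reflect array-to-array spread alone, and that spread may be technical.

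MMPs are zinc-dependent endopeptidases that cut collagens, proteoglycans and other matrix proteins, and they are made as inactive precursors. Most ADAMs are membrane-bound relatives that release the outer part of growth factors, cytokine receptors and adhesion molecules from the cell surface, a step called shedding. ADAMTS proteases are secreted, carry thrombospondin repeats and include the enzymes that cut large proteoglycans such as versican. TIMPs bind the active site of these enzymes and block it, and in tumours the balance of proteases and TIMPs is known for its part in invasion.

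All levels below are the deposited log2 values, changes are knockdown minus control on the log2 scale, and each error is an SD (n = 3 arrays) or, for a change, the SE from limma. A gene is called changed where its limma adjusted p, over all 19775 genes, is under 0.05. ATAD3A itself was lower in the knockdown, at 7.77 ± 0.038 in control and 7.28 ± 0.21 in knockdown (SD, n = 3; limma adjusted p = 0.0129), or 29% lower. This value rests on 1 probe set of a class that can also bind related transcripts (an x_at set), and how much of its remaining signal came from ATAD3A was not tested. Array medians lay between 3.16 and 3.23, and single values between 0.826 and 16.6. All 6 general markers of this line that were examined (VIM, CD44, AXL, ZEB1, CAV1 and MSN) were above a log2 value of 4.5. Of these, 5 were called lower in the knockdown, by 0.25 (CAV1) to 0.45 (MSN), VIM did not pass the test, and the summed level of the list was log2 16.87 to 16.88 in control and 16.64 to 16.69 in knockdown. Another list held 4 hormone receptor and HER2 breast markers taken as low in this line. ESR1 and PGR were below 4.5 in both groups and were not called. ERBB2 was above it, at 7.80 in control and 8.31 in knockdown, and was called higher. GATA3 was above it too, at 8.61 and 7.98, and was called lower. This list summed to 9.28 to 9.33 in control and 9.15 to 9.22 in knockdown. Of 9 fibroblast markers, only COL1A1 was above 4.5, with a change of 1.01, and the summed level of the list was log2 8.48 to 8.71 in control and 9.45 to 9.52 in knockdown. Of 5 endothelial markers only PECAM1 was above 4.5, with a change of -1.27, and the list summed to 6.71 to 7.17 in control and 5.75 to 6.20 in knockdown. Of 4 neutrophil and macrophage markers only LCN2 was, with a change of 1.27, and the sums were 8.91 to 9.02 and 10.20 to 10.24. None of 7 leukocyte markers was above 4.5 in either group, though 3 of them were called (CD14 and LYZ lower, CD3D higher), and the list summed to 5.97 to 6.14 in control and 5.93 to 5.94 in knockdown. The part of other cell types in the results was not tested.

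Of the 64 members, 12 were lower in the knockdown, 2 were higher and 50 did not pass the test. By the same limma test, 13.9% of all genes were lower, 19.7% were higher and 33.6% were called in either direction. Members above a log2 value of 4.5 in the mean of either group numbered 21: 5 MMP, 7 ADAM, 6 ADAMTS and 3 TIMP genes. All 14 called members were among these 21. Of the 10506 genes of the table that lay above the same limit, 25.4% were lower, 36.2% were higher and 61.7% were called either way. The 14 of 21 members called (66.7%) were thus a share near that of all genes at this level, while the 12 of 21 that were lower made up 57.1%. Of all 64 members, 7 were called and lower by at least 2-fold, where 2.42% of all genes were; 7 of the 21 compare with 4.44% of genes above the limit. For rises of at least 2-fold the count was 1 of the 21, against 6.09%. The median change of the 21 was -0.47, against 0.065 for the 10506 genes, and over all 64 members it was -0.016, against -0.00084 for all genes. The values of 13 of the 21 members were lower on every knockdown array than on any control array, and those of 2 were higher on every one. Among all genes above the limit, 29.6% and 42% showed such a gap between the groups downward and upward. In RNA from whole cultures, fewer cells making a transcript and less transcript per cell cannot be told apart.

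**Figure D1:**
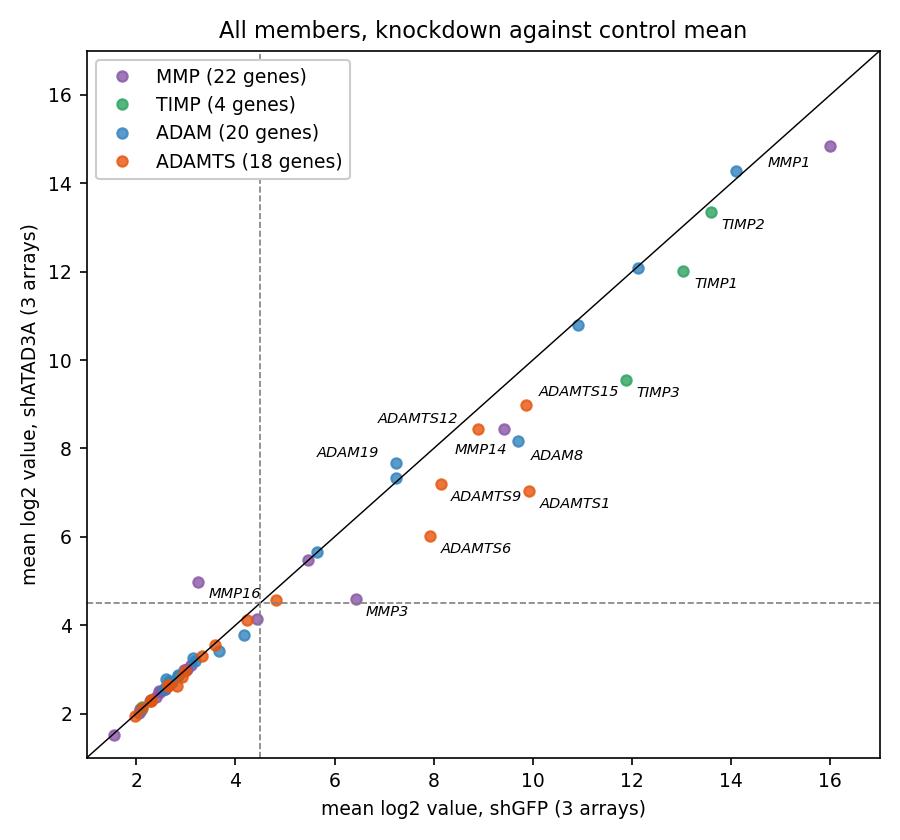
Mean log2 value of each of the 64 members in knockdown (vertical axis) against control (horizontal axis), each mean over 3 arrays, with colour for the family, dashed lines at 4.5 and the line of equal values. The 14 called genes are named: 12 lie below the line of equal values, while ADAM19 and MMP16 lie above it, and the 43 genes under 4.5 in both groups crowd along the line.

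Among the secreted collagenases and stromelysins, MMP1 and MMP3 were measured above the limit, and both fell. MMP1 encodes interstitial collagenase, which cuts fibrillar collagen. Its probe set read 15.99, 16.05 and 15.97 on the control arrays and 14.82, 14.83 and 14.89 on the knockdown arrays. The groups lay far apart against a spread of 0.040 and 0.035 (SD, n = 3). The change of MMP1 was -1.16 ± 0.035 (SE; limma adjusted p = 5.884e-06), or 55.2% lower. In control its level was near the top of the scale, where the highest value of the table was 16.6; whether the signal was compressed there was not tested. MMP3 encodes stromelysin-1, an enzyme of broad range that also activates other MMP precursors. It read 6.26, 6.40 and 6.61 in control and 4.34, 4.52 and 4.93 in knockdown. The knockdown arrays of MMP3 thus sat around the 4.5 limit, all below the lowest control array. Its change was -1.83 ± 0.17 (SE; limma adjusted p = 0.000357), and with a knockdown mean of 4.60 near the low end of the scale the size of this fall is imprecise.

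MMP1 and MMP3 are neighbours in a run of 9 MMP genes on chromosome 11, in the order MMP7, MMP20, MMP27, MMP8, MMP10, MMP1, MMP3, MMP12 and MMP13 in the GRCh38.p14 gene table. The other 7 genes of the run were below 4.5 in both groups, between 2.27 (MMP7) and 3.02 (MMP8) in control, and none of them was called. The largest of their changes was 0.049, for MMP10 (limma adjusted p = 0.54).

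Of the membrane-anchored MMPs, MMP14 fell and MMP16 rose. MMP14 encodes a membrane-type collagenase that activates the precursor of MMP2 at the cell surface together with TIMP2. Its brightest probe set read 9.50, 9.29 and 9.49 in control and 8.35, 8.31 and 8.63 in knockdown, with no overlap. The change of MMP14 was -0.995 ± 0.10 (SE; limma adjusted p = 0.000524), or 49.8% lower. Its 3 other probe sets were above 4.5 too and fell by 1.61, 1.27 and 1.04, so the fall on the brightest probe set was the smallest of the 4. MMP16 encodes another membrane-type MMP. It read 3.27, 3.29 and 3.18 in control and 5.52, 4.75 and 4.70 in knockdown. The first knockdown array was the highest, and all 3 were above every control array. The change of MMP16 was 1.74 ± 0.22 (SE; limma adjusted p = 0.0014), and without the first knockdown array it was 1.48. MMP16 passed the 4.5 limit only through the knockdown group, its 4 other probe sets lay below the limit in both groups with none called, and the mean of its probe sets rose by 0.37 (limma adjusted p = 0.00157).

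MMP19, which has a wide range of matrix substrates, was the remaining MMP above the limit. It read 5.47 ± 0.033 in control and 5.48 ± 0.017 in knockdown (SD, n = 3), and its change of 0.0086 had a 95% interval from -0.064 to 0.082. The other probe set of MMP19 lay well below the limit, at 2.39 in control and 2.44 in knockdown. MMP9, or gelatinase B, lay just under the limit, at 4.43 in control and 4.14 in knockdown, and was not called (change -0.29; limma adjusted p = 0.0955). MMP2, or gelatinase A, which MMP14 activates, lay low in both groups, at 2.57 and 2.55.

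The 3 TIMP genes above the limit all fell, by amounts that differed widely. TIMP3 encodes the inhibitor that binds to the matrix and blocks ADAM and ADAMTS enzymes as well as MMPs. Its brightest probe set read 11.82, 11.88 and 11.93 in control and 9.67, 9.51 and 9.47 in knockdown. The highest knockdown array of TIMP3 was 2.16 below the lowest control array. The change was -2.33 ± 0.061 (SE; limma adjusted p = 3.834e-06), or 80.1% lower, and the 3 other probe sets of TIMP3 fell by 2.00, 2.07 and 2.12.

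TIMP1 encodes a soluble inhibitor of most secreted MMPs. It read 13.13, 13.02 and 12.97 in control and 11.94, 12.06 and 12.01 in knockdown, again without overlap. The change of TIMP1 was -1.03 ± 0.054 (SE; limma adjusted p = 4.02e-05), or 51.1% lower. TIMP2, which inhibits MMPs and also takes part in MMP2 activation, moved much less. It read 13.57, 13.63 and 13.58 in control and 13.35, 13.34 and 13.35 in knockdown, a small gap that exceeded the spread of 0.033 and 0.0053 (SD, n = 3). The change of TIMP2 was -0.25 ± 0.029 (SE; limma adjusted p = 0.000951), or 15.8% lower, and its other probe sets above the limit fell by 0.29 and 0.55. TIMP4, the fourth inhibitor, lay at 2.11 in control and 2.14 in knockdown.

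**Figure D2:**
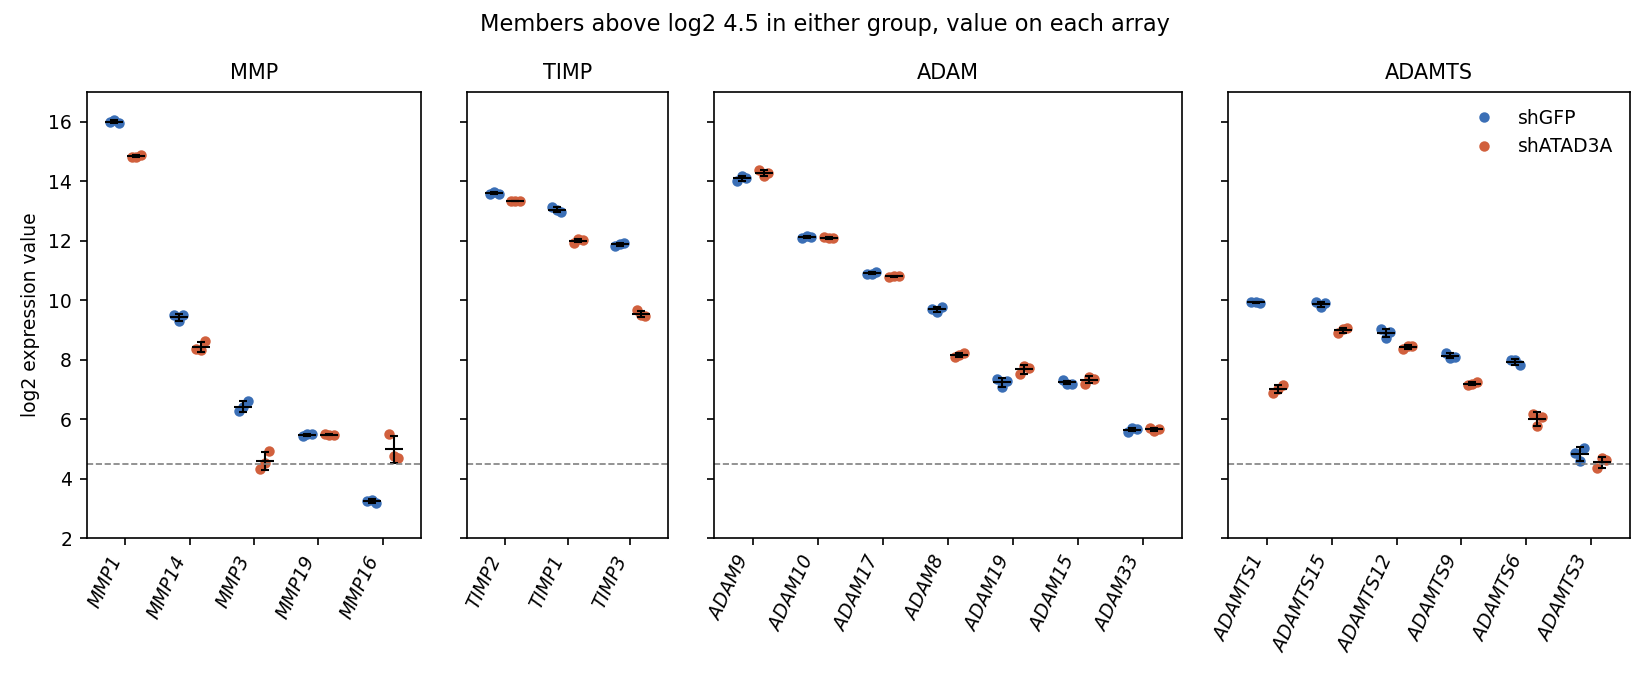
Log2 value on each array (points, 3 per group) with the group mean and SD (black bars) for the 21 members above 4.5 in either group, by family; blue is shGFP, orange is shATAD3A and the dashed line is 4.5. TIMP3, ADAMTS1 and ADAMTS6 show wide gaps between the groups, ADAM10 and MMP19 overlap, and MMP16 crosses the dashed line upward.

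The ADAMTS genes above the limit numbered 6, of which 5 fell and none rose. ADAMTS1 encodes a protease that cuts versican and aggrecan, and it had the largest fall of all 64 members, in place 57 among the 19775 genes ordered from the largest fall. It read 9.94, 9.93 and 9.91 in control and 6.89, 7.03 and 7.17 in knockdown. The control arrays were close together (SD 0.015, n = 3), and the highest knockdown array was 2.74 below them. The change of ADAMTS1 was -2.90 ± 0.070 (SE; limma adjusted p = 3.032e-06), or 86.6% lower. Its other probe set went from 6.28 to 3.62, a change of -2.66 (limma adjusted p = 0.000104).

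ADAMTS6 had the next largest fall of the family. It read 7.98, 8.01 and 7.81 in control and 6.18, 5.76 and 6.08 in knockdown. The groups of ADAMTS6 did not overlap. Its change was -1.93 ± 0.12 (SE; limma adjusted p = 7.083e-05), or 73.7% lower. ADAMTS9, a versican-cutting enzyme, read 8.24, 8.08 and 8.10 in control and 7.17, 7.18 and 7.25 in knockdown. Its change was -0.94 ± 0.053 (SE; limma adjusted p = 5.363e-05). ADAMTS15, another proteoglycan-cutting member, read 9.94, 9.77 and 9.89 in control and 8.90, 9.02 and 9.06 in knockdown. Its change was -0.88 ± 0.061 (SE; limma adjusted p = 0.000115). ADAMTS9 was thus 48.0% lower and ADAMTS15 45.5% lower, with all knockdown arrays below all control arrays.

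ADAMTS12 moved least of the called ADAMTS genes. It read 9.03, 8.74 and 8.92 in control and 8.36, 8.48 and 8.46 in knockdown, without overlap. Its change was -0.47 ± 0.080 (SE; limma adjusted p = 0.00518), or 27.6% lower. ADAMTS3, which removes the amino-terminal propeptide of fibrillar procollagens, read 4.87, 4.58 and 5.04 in control and 4.35, 4.70 and 4.64 in knockdown. Its groups overlapped, and its change of -0.27 was not called (limma adjusted p = 0.247; 95% interval -0.61 to 0.080). It was also the member closest above the limit. With the average over every probe set of a gene, those in the low range included, the changes were smaller but still called: -0.29 for ADAMTS9, -0.44 for ADAMTS15, -0.93 for ADAMTS6 and, among the ADAM genes, -0.90 for ADAM8.

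Of the 7 ADAM genes above the limit, ADAM8 fell, ADAM19 rose and 5 did not pass the test, the sheddases ADAM10 and ADAM17 among them. ADAM8 encodes an active membrane protease that is known from leukocytes and invasive tumour cells. Its brightest probe set read 9.71, 9.61 and 9.77 in control and 8.11, 8.17 and 8.24 in knockdown. The highest knockdown array was 1.37 below the lowest control array. The change of ADAM8 was -1.52 ± 0.055 (SE; limma adjusted p = 1.045e-05), or 65.2% lower. Its other probe set lay below 4.5 in both groups and was not called.

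ADAM10, the sheddase of Notch receptors and cadherins, read 12.10, 12.15 and 12.11 in control and 12.12, 12.08 and 12.08 in knockdown. Its groups overlapped, and its change of -0.026 had a 95% interval from -0.097 to 0.046. ADAM17, the enzyme that releases TNF and several ligands of the EGF receptor, read 10.88, 10.90 and 10.95 in control and 10.78, 10.82 and 10.82 in knockdown. The groups of ADAM17 did not overlap, but the change of -0.10 just missed the threshold (limma adjusted p = 0.0512). It passed after quantile normalization (-0.12, limma adjusted p = 0.0175), with averaged probe sets (-0.17, limma adjusted p = 0.0113) and with array weights (-0.10, limma adjusted p = 0.0425). Other settings left ADAM17 further from the threshold. The limma adjusted p was 0.115 with arrays centred on their medians and 0.0917 with only genes above 4.5. With a variance prior that follows intensity it was 0.0828. The other probe sets of ADAM17 changed by -0.17 and -0.25 and were not called (limma adjusted p = 0.0662 and 0.284).

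ADAM19 was the ADAM gene that rose. This membrane protease read 7.34, 7.08 and 7.29 in control and 7.51, 7.77 and 7.74 in knockdown. Its groups did not overlap, though the nearest arrays were only 0.17 apart. The change of ADAM19 was 0.44 ± 0.097 (SE; limma adjusted p = 0.0155). The call was lost without the second knockdown array (0.39, limma adjusted p = 0.0513) and without the third (0.40, limma adjusted p = 0.0579), and with averaged probe sets the change was 0.19.

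ADAM9, a widely expressed member, read 14.01, 14.18 and 14.12 in control and 14.38, 14.16 and 14.28 in knockdown. The groups of ADAM9 overlapped, and the change of 0.17 was not called (limma adjusted p = 0.126). Its dimmer probe set, at 7.71 in control, rose by 0.37 (limma adjusted p = 0.0101). ADAM15 changed by 0.085 on its brightest probe set and by -0.21 on the other, neither of them called. ADAM33 lay at 5.66 in both groups, with a change of 0.0051 and a 95% interval from -0.11 to 0.12. This probe set is an x_at set, as for ATAD3A, and how much of its signal came from ADAM33 was not tested. The other probe set of ADAM33 lay below the limit, at 2.92 in control and 2.90 in knockdown.

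**Figure D3:**
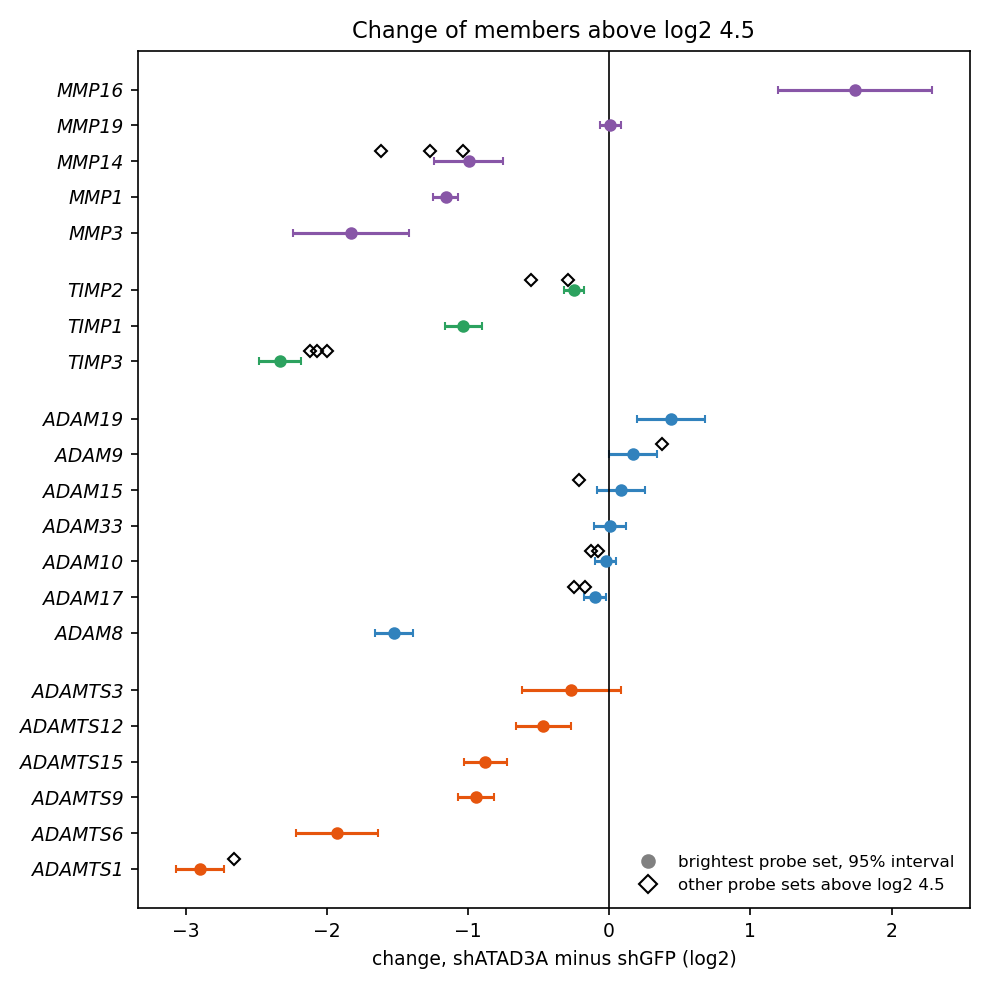
Change in knockdown minus control (log2) for the 21 members above 4.5, with colour for the family; circles are the brightest probe set with its 95% interval from the limma fit, and open diamonds are other probe sets above 4.5. The diamonds of MMP14, TIMP2, TIMP3 and ADAMTS1 lie on the same side of 0 as the circles, while the diamond of ADAM15 lies on the other side of 0 from its circle.

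Other probe sets were available for most members. The 64 genes had 145 probe sets, and 21 genes had only 1. Of the 14 called genes, 4 (MMP14, TIMP2, TIMP3 and ADAMTS1) had further probe sets above 4.5, and all 9 of these probe sets fell with the brightest and were called in the fit over 54613 probe sets. The other called members rest on 1 probe set above the limit.

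The remaining 43 members were below 4.5 in both groups: 17 MMP, 13 ADAM, 12 ADAMTS and 1 TIMP gene. Their group means ran from 1.52 (MMP17) to 4.43 (MMP9), and their changes from -0.39 (ADAM28) to 0.18 (ADAM21). The test called 0 of the 43 (limma), and 3 had an unadjusted p under 0.05, which were MMP9, ADAMTS16 and ADAMTS17. Of all 9269 genes not above the limit, 1.8% were called, so a count of 0 among 43 is near the background. Next to MMP9, those closest below the limit were ADAMTS16, at 4.23 in control, and ADAM28, at 4.17. The proteoglycan-cutting enzymes ADAMTS4 and ADAMTS5 were in this group, at 2.12 and 2.98 in control, as were matrilysin (MMP7, 2.27), collagenase-3 (MMP13, 2.31), stromelysin-3 (MMP11, 2.06) and ADAM12 (3.66). ADAM5 and ADAM6 of this group are transcribed pseudogenes. A change can still be called at such levels, as on the dimmer probe set of ADAMTS6, which went from 3.92 to 3.08 (limma adjusted p = 0.0268), but calls there were few, and a gene that did not pass is not shown to be unchanged.

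The called members lie on 10 chromosomes. The median change of the 25 genes on either side of each was between -0.18 (around TIMP1) and 0.020 (around ADAMTS12), and subtracting it, a setting chosen after seeing the data, left all 14 calls in place. These medians were small beside the changes of the members and were subtracted without an error of their own. The calls could thus hardly have been lost, and that they stayed is no support for them.

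The promoter sequences of several members are shown to set out what the letters just before the start site hold, since 12 members fell. RefSeq sequences for GRCh38.p14 matched 36 of the 64 genes (37 promoters). The 250 bases before each start were searched on both strands for TGANTCA, the core of the site that AP-1 factors bind and one known from MMP promoters, and for TATAAA, a core promoter element; the motifs do not overlap in the promoters shown. TGANTCA was found in 4 of the 37 (10.8%; ADAMTS12, MMP7, MMP10 and MMP20), against 6.57% of all 35116 promoters, and TATAAA in 7 (18.9%), against 10.7%. Promoters of 6 of the 12 genes that fell were searched (MMP14, TIMP1, TIMP3, ADAM8, ADAMTS6 and ADAMTS12). Of these, 1 held TGANTCA, that of ADAMTS12, and 0 held TATAAA. The other 6 (MMP1, MMP3, TIMP2, ADAMTS1, ADAMTS9 and ADAMTS15) were not searched. Only exact matches were counted, so a promoter without one is not shown to lack a site for AP-1 factors. Stretches that differ from TGANTCA in 1 letter were not counted, in the members or in all promoters. Examples in the sequences printed below are tgagtaa in TIMP1 and ggattca in MMP14. The last 120 bases before the start are printed 5′ to 3′ for ADAMTS12, for MMP7 and MMP10, whose transcripts were below 4.5 in both groups, and for MMP14, TIMP1 and TIMP3, which fell; capitals mark TGANTCA and TATAAA.
ADAMTS12, chr5:33891991-33892110, minus strand: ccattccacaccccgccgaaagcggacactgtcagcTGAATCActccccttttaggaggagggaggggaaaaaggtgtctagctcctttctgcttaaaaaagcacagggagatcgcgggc
MMP7, chr11:102530748-102530867, minus strand: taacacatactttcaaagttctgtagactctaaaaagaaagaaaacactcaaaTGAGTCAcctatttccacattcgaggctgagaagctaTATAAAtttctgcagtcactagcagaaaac
MMP10, chr11:102780629-102780748, minus strand: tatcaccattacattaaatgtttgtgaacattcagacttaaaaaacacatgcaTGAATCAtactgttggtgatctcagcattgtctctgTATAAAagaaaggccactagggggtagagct
MMP14, chr14:22836465-22836584, plus strand: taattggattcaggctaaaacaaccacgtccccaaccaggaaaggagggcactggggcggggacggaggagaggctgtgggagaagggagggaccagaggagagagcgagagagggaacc
TIMP1, chrX:47582316-47582435, plus strand: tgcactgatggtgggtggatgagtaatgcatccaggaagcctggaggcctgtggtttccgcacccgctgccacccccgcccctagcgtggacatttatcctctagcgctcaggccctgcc
TIMP3, chr22:32801585-32801704, plus strand: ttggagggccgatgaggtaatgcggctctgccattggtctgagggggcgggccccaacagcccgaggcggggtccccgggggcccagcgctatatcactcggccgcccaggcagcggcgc

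In MMP7 and MMP10 the TGANTCA site began 67 bases before the start in both, and the TATA box 30 and 31 bases before it. In ADAMTS12 the site began 84 bases before the start. The printed stretches of MMP7 and MMP10 held 35.0% and 36.7% G and C. Those of ADAMTS12, MMP14, TIMP1 and TIMP3 held 55.0%, 60.0%, 62.5% and 72.5%. These genes were picked for print, and the groups they come from differed little. Over the 250 bases searched, the median was 63.0% for members below the limit and 66.6% for members that fell. It was 58.0% for all promoters. A match of letters is a description and no measure of binding.

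Genes around the metalloproteases were followed in 6 lists. The lists were chosen with earlier results of these data known, so their counts are a description and no independent test. Their counts stand against the shares given above: of all genes, 19.7% rose, 13.9% fell and 33.6% were called either way, and of genes above 4.5, 36.2% rose, 25.4% fell and 61.7% were called. In a list of transcription factors and cytokines that are known to act on protease genes, 14 of 25 measured members fell, 1 rose and 10 did not pass the test, with a median change of -0.16, against -0.00084 for all genes. By the same limma test 13.9% of all genes fell. Of the list, 20 genes were above 4.5, and these included all 14 that fell; their median change was -0.28. Of all genes above the limit, 25.4% fell, and their median change was 0.065. ETV1, an ETS factor, went from 12.43 to 10.47, a change of -1.95 (limma adjusted p = 1.397e-06), and the AP-1 subunit JUND changed by -1.12. The AP-1 subunits FOSL1, JUNB, JUN and FOSL2 changed by -0.49, -0.58, -0.25 and -0.23, all called. ETS1 changed by -0.86, and the growth factor TGFB2 was the 1 that rose, by 0.63.

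In a list of shedding partners, activating proteases and other inhibitors, 6 of 24 rose, 4 fell and 14 did not pass; of the 16 above 4.5, 6 rose and 3 fell, near the 61.7% called among all such genes. The tetraspanin TSPAN15, a partner that steers ADAM10, rose by 1.23, and BSG, the surface glycoprotein known as an inducer of MMPs, rose by 0.87. TFPI2, a serine protease inhibitor of the matrix, changed by -1.79, and PAPPA, a metalloprotease that cuts IGF-binding proteins, by -1.73. FRMD8 and RHBDF2, which belong to the complex that carries ADAM17 to the surface, went in opposite directions, with 0.60 and -0.44. RECK, a membrane-bound inhibitor of MMPs, changed by 0.086 and was not called (limma adjusted p = 0.56).

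Of 16 ADAMTS-like and related protease genes, 2 fell, 1 rose and 13 did not pass, a smaller share called than the 33.6% of all genes. But 11 of the 16 were below 4.5. Among the 5 above it, 2 fell and 1 rose, near the 61.7% called among all such genes. The matrix proteins THSD4 and ADAMTSL1, which resemble ADAMTS enzymes but lack the protease domain, changed by -1.15 and -0.95, and PAPLN rose by 2.30 from below 4.5 in control. Of 10 genes of plasminogen activation, a serine protease system that works beside the MMPs, 3 fell and 3 rose; all 6 were among the 8 above 4.5, where 61.7% of all genes were called. PLAT, the tissue-type activator, went from 13.09 to 10.62, a change of -2.46 (limma adjusted p = 4.689e-07), PLAU, the urokinase, changed by -0.34, and the plasminogen receptor PLGRKT by -0.55. The surface binding protein S100A10 rose by 0.36 and the inhibitor SERPINE2 by 0.33.

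Of 26 genes for proteins that ADAMs shed, 12 rose, 8 fell and 6 did not pass; of the 21 above 4.5, 11 rose and 8 fell, where 36.2% and 25.4% of all such genes did. IL6R, the receptor of interleukin 6, went from 4.27 to 7.71, a change of 3.44 (limma adjusted p = 0.000108). The adhesion molecule L1CAM changed by -2.06 and the amyloid precursor APP by -0.92. The EGF receptor ligand EREG went from 8.92 to 13.23, a change of 4.31. The cadherin CDH1 went from 2.40, well below 4.5, to 7.53; its difference of 5.13 starts from a control level in the range of dim probe sets, so its size is imprecise. Of 23 matrix genes, 5 rose, 4 fell and 14 did not pass, a share near the 33.6% called among all genes, and all 8 above 4.5 were called (4 rose and 4 fell), where 61.7% of all such genes were. The largest rises among them were those of the basement membrane chains COL4A1, by 2.395, and COL4A2, by 1.67. The largest falls were those of TNC, with a change of -1.62, and of the laminin chain LAMB3, with -1.54. Versican, the substrate shared by several ADAMTS enzymes, was below the limit, at 3.13 in control and 3.24 in knockdown for VCAN (limma adjusted p = 0.586).

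**Figure D4:**
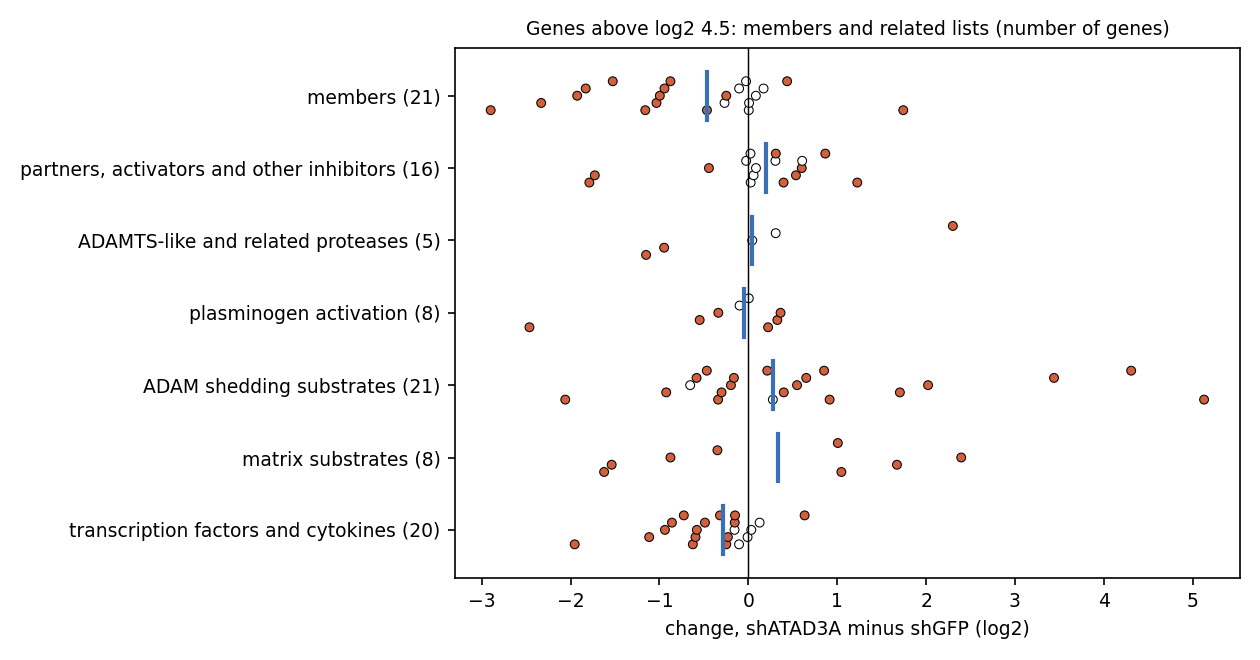
Change in knockdown minus control (log2) of each gene above 4.5 in either group, for the members and the 6 related lists; filled points were called, open points were not, and blue bars are medians. Medians below 0 are those of the members (-0.47), of the transcription factors and cytokines (-0.28) and of plasminogen activation (-0.046), and shed proteins spread from -2.06 to 5.13.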

How the data were processed

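Total RNA of 6 samples was labelled from 250 ng and hybridised to 6 arrays, per the labels' protocols. The values are on a log2 scale, as deposited by the authors; the scale was read from their range, and the summary and normalization methods are not given in the sources used here. The submitters' processing notes name Partek and give no version. The array holds 54675 probe sets, of which 62 controls were left out. In the platform annotation dated 2016, 41091 probe sets carry 1 symbol, 1801 carry several and 11721 carry no symbol; 0 symbols changed through Entrez IDs. Each gene was represented by its single-symbol probe set with the highest 6-array mean, and dim probe sets were not filtered. Arrays were assigned to groups by their titles, and no array was a copy of another.

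The groups were compared with limma 3.58.1 in R 4.3.3 (lmFit, eBayes, two-sided, no covariates), with Benjamini-Hochberg adjustment over all genes. The fit was also run on simulated data, as a check of the code. Far fewer genes changed there than were called here, so that run is no support for the calls. The number of arrays limits the precision. Members, gene lists and the 4.5 limit were chosen with earlier results of these data known. Named were all members above 4.5, those within 0.5 below it, and from each list up to 2 rises and 2 falls; further genes were named for their role or after their values were seen. Alternatives covered normalization, choice of probe set, filters, variance prior, array weights, replicate numbers and leaving out arrays.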

Additional observations from a re-analysis of the deposited data

How the results depend on the processing

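Of the 14 called members, 13 kept their direction and call in all of the up to 16 other settings that gave them a value. The exception was ADAM19, as described. Members called numbered between 11 (with s_at and x_at probe sets left out, where ADAM8, ADAMTS1 and TIMP3 have no value) and 17 (neighbour median removed), against 14. When each array was left out in turn, the members that rose numbered 1 to 2 and the ADAM genes called 1 to 2. ADAM genes called were 4 with averaged probe sets and 1 without s_at and x_at probe sets. With the neighbour median removed, 5 genes of the ADAMTS-like list were called in place of 3. The members above 4.5 numbered 17 with averaged probe sets. They numbered 16 without s_at and x_at probe sets, where ADAM8, ADAM33, MMP19, ADAMTS1 and TIMP3 have no value.

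Changes that turned sign were all of members not called in the main comparison. ADAM33 read -0.0038 after quantile normalization, -0.0069 with averaged probe sets, -0.019 on its most variable probe set, -0.015 with array weights and -0.099 with the neighbour median removed, and between -0.032 and 0.035 when arrays were left out. ADAM15 read -0.064 with averaged probe sets and -0.21 on its most variable probe set. MMP19 read -0.0078 with array weights, between -0.011 and 0.018 when arrays were left out and -0.21 (limma adjusted p = 0.00238) with the neighbour median, 0.22, removed. ADAM9 was called with arrays centred on their medians (0.18, limma adjusted p = 0.049) and on its dimmer probe set. The largest falls of MMP14 and TIMP2, -1.61 and -0.55, were on their most variable probe sets. The causes of these differences were not tested.

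With the replicate number as a block, 14 members were called, and 6057 genes against 6644. The numbers gave no sign of pairing: the deviations of same-numbered arrays correlated at -0.23, -0.17 and 0.067 across genes, and 2 of 6 arrays correlated best with their own number. So few arrays cannot show that the replicates were unpaired.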

Other observations

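Transcripts whose names resemble those of the members but lie outside the rule were mostly low. Of 15 such genes, ADAMTSL1 and MMP24OS were above 4.5. MMP24OS, annotated on the opposite strand of MMP24, lay at 9.24 in control and 9.28 in knockdown (change 0.036; limma adjusted p = 0.507), while MMP24 itself lay at 2.61 in both groups. ADAMTS9-AS1 and ADAMTS9-AS2, antisense to ADAMTS9, lay at 2.91 and 2.72 in control and were not called, while ADAMTS9 fell. The probe set shared by MMP23A and MMP23B lay at 1.28 in both groups, and the one shared by ADAM29 and another locus at 2.75 and 2.76.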
